A study of Mus musculus with 4 samples.

Results

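The genes described here build the MHC class I molecule and load it with peptide: the heavy chains H2-D1 and H2-K1, the light chain B2m, the peptide transporter subunits Tap1 and Tap2, the loading factor Tapbp, and H2-T23. They were chosen by name, and every probe set with one of these 7 symbols was taken from both chips of a 2-chip Affymetrix mouse set. That gave 12 of 13069 probe sets, 9 of them from the A chip and 3 from the B chip. The chips name 6137 genes by a probe set of their own, 6 of these genes among them, through 10 probe sets. H2-T23 had none, because both probe sets that carry its symbol also carry that of a pseudogene, H2-T-ps. H2-D1 alone was read on both chips.

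The series set memory against naive B6.2.16 CD8 T cells. B6.2.16 is a mouse line whose T cells carry 1 transgenic receptor, specific for the male HY antigen. Memory cells began as splenocytes of RAG1-deficient B6.2.16 females, cultured for 4 days with HY peptide and then transferred into RAG1-deficient females. After 200 days they were sorted with magnetic beads from host spleens and lymph nodes, with a purity given as over 80%. Naive cells were taken from lymph nodes of RAG1-deficient B6.2.16 females, with a purity given as over 85%. RAG1 is a recombinase needed for antigen receptor genes, so donors and hosts lack other T and B cells but keep macrophages, dendritic cells, granulocytes and NK cells. No age or number of animals is stated. Tissue of origin, culture, transfer and sorting all differ between the groups and cannot be told apart.

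Class I molecules display peptides made inside the cell to CD8 T cells. The proteasome cuts proteins, the Tap1 and Tap2 pair pumps the pieces into the endoplasmic reticulum, and tapasin, the product of Tapbp, holds an empty heavy chain and light chain beside that pump until a peptide fits. Nearly all nucleated cells make these molecules, lymphocytes and macrophages at high levels, and interferons raise the whole pathway. H2-K1 and H2-D1 are the classical heavy chains of C57BL/6 mice and H2-T23 encodes Qa-1, a non-classical chain that NK receptors read.

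Each population was read once per chip, on 4 arrays in all. Without replicates no ratio has an error or a p-value, and each value below compares 1 pair of arrays. On the B chip the deposited intensities were scaled to a common trimmed mean, values under a floor of 423 were treated as noise, and a call of higher or lower needed a 2-fold difference with the brighter array at 846 or more. The B arrays followed each other across probe sets (Spearman correlation 0.85 over 6540), as did the memory arrays of both chips over the 55 control probe sets (0.96). The naive A array did neither (0.10 over 6529 probe sets against the memory A array, 0.21 over the controls against the naive B array). For that reason the A chip gives a memory level only.

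On the B chip the heavy chain H2-D1 was lower in memory cells, the light chain B2m was less than 2-fold lower, and the transporter subunit Tap2 was too dim to compare. Of the 3 class I probe sets, 1 was called lower and 0 higher. Over all 6540 probe sets of the chip, 1.73% were called lower and 1.02% higher. Among the 522 bright enough to be called, 21.6% were lower and 12.8% higher, and against these shares 1 of 3 is not a result about class I genes as a group. The split of all calls depends on the scaling: 67 were higher and 113 lower as reported, 94 and 91 with median-ratio scaling, 100 and 73 after quantile normalization, and 76 and 54 with intensity-dependent scaling.

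H2-D1, the heavy chain that pairs with B2m and presents peptide, had a scaled intensity of 2572 on the memory array and 9639 on the naive array. The memory value was thus 3.75-fold lower, a log2 ratio of -1.91. It ranked 113 by brightness on the memory array and 21 on the naive array. Its probe set, x00246_f_at, is of the sequence-family class. Such probes match more than 1 related transcript, so the value may include other class I heavy chains.

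B2m, the light chain shared by all class I molecules and by class I-like chains such as Cd1d1, had a scaled intensity of 3812 on the memory array and 6574 on the naive array. The memory value was 1.72-fold lower, a log2 ratio of -0.79, which did not reach 2-fold. B2m ranked 16 on the memory array and 44 on the naive array, so it stood higher in the order of the memory array although its intensity there was lower. Its probe set, x01838_f_at, is also of the sequence-family class.

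Tap2, a subunit of the peptide pump, had a scaled intensity of 319 on the memory array and 147 on the naive array. Both values lay under the floor, so no fold is given, and a difference was not detectable at this signal. With the floor halved, the memory value passed it and the log2 ratio was 0.59, a bound because the naive value stayed under that floor too.

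**Figure D1:**
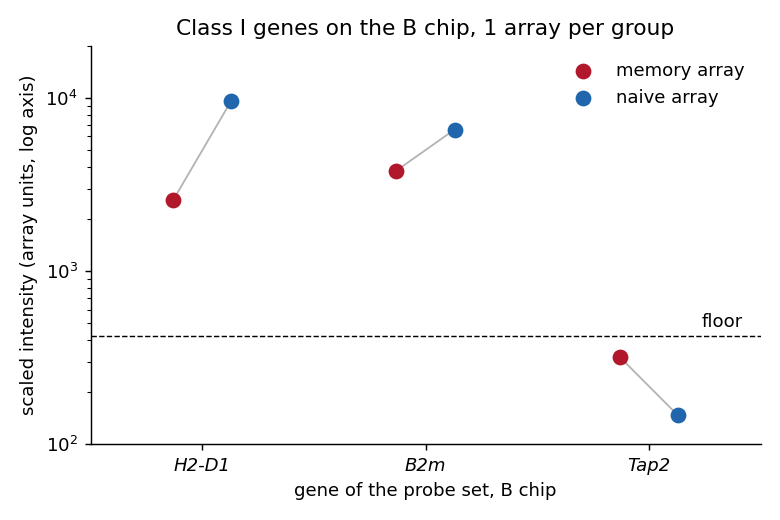
Scaled intensity (array units, log axis) of the 3 class I probe sets of the B chip on the memory array (red) and the naive array (blue), with the floor of 423 as a dashed line. H2-D1 and B2m lie far above the floor and are lower on the memory array, whereas both Tap2 points lie under it.

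Both H2-D1 and B2m sit at the bright end of the B chip, where all 50 of the brightest probe sets had ratios below zero. By mean log2 intensity H2-D1 ranked 33 and B2m ranked 31 of 6540. Of the 50 brightest probe sets, 72.0% were called lower and 0.0% higher in memory, with a median log2 ratio of -1.52. The next 50 had a median of -0.76, and those ranked 101 to 150 had one of -0.25. The highest deposited value of any gene probe set was 5163 on the memory array and 15668 on the naive array, from different probe sets. Read from the lowest ratio upward, H2-D1 came 11th and B2m 42nd of the 50 brightest, so H2-D1 was below their median and B2m above it.

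Among the control probe sets the fall was not limited to the bright end, and some of them do not read cellular RNA. The 9 control probe sets for bacterial bio genes and phage cre were all lower on the memory array, with log2 ratios from -3.31 to -1.55. Their transcripts are normally added during labelling and hybridisation. The bioB probe sets read 180, 222 and 186 in memory against 1330, 2380 and 2875 in naive. These memory values were raised to 423 before the ratio was taken, which understates their fall. The control probe sets for Actb, beta-actin, had log2 ratios from -2.55 to -1.70. Those for Gapdh, a glycolytic enzyme, lay within 2-fold, from -0.50 to 0.14. The part of these array differences in the class I ratios was not tested.

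**Figure D2:**
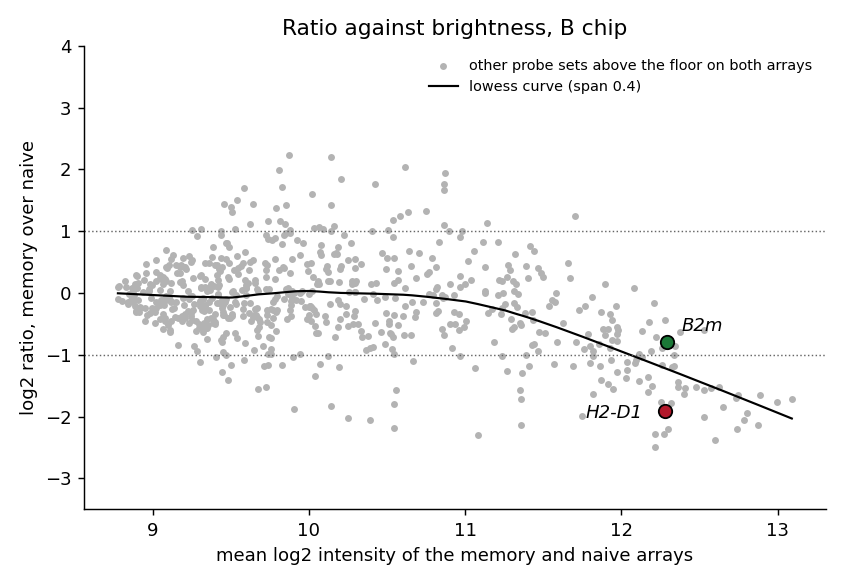
Log2 ratio of memory over naive (vertical axis) against the mean log2 intensity of both arrays (horizontal axis) for the 696 B-chip probe sets above the floor on both arrays, with the lowess curve in black and 2-fold as dotted lines. The curve bends down at the bright end, with H2-D1 (log2 ratio -1.91) under it and B2m (-0.79) above it.

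Intensity-dependent (lowess) scaling, which takes the local trend with brightness out of each ratio, moved both chains towards memory. H2-D1 had a log2 ratio of -0.69 (1.61-fold lower), no longer past 2-fold. B2m turned to 0.44 (1.36-fold higher). With this scaling 10.3% of the 522 bright probe sets were called lower and 14.6% higher, and 6.0% of the 50 brightest were lower. H2-D1 then came 6th from the lowest ratio among those 50 and B2m 42nd, around a median of -0.03. Quantile normalization gave -1.21 for H2-D1 and 0.54 for B2m.

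The gap between heavy and light chain changed less than either ratio. The log2 ratio of H2-D1 minus that of B2m was -1.12 as reported, without scaling and with scaling by the median ratio. It was -1.13 with intensity-dependent scaling at each of 3 spans, and -1.75 with quantile normalization. H2-D1 was thus 2.17-fold lower relative to B2m as reported. It was dimmer than B2m on the memory array (2572 against 3812) and brighter on the naive array (9639 against 6574). Any scaling that keeps the order within each array therefore gives a negative gap. A negative sign under every scaling tried is thus no separate check. A single factor per array cancels in this gap, and so does most of a trend with brightness, because these probe sets are about equally bright. The gap describes unequal change of 2 probe sets between 1 pair of arrays and has no error.

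**Figure D3:**
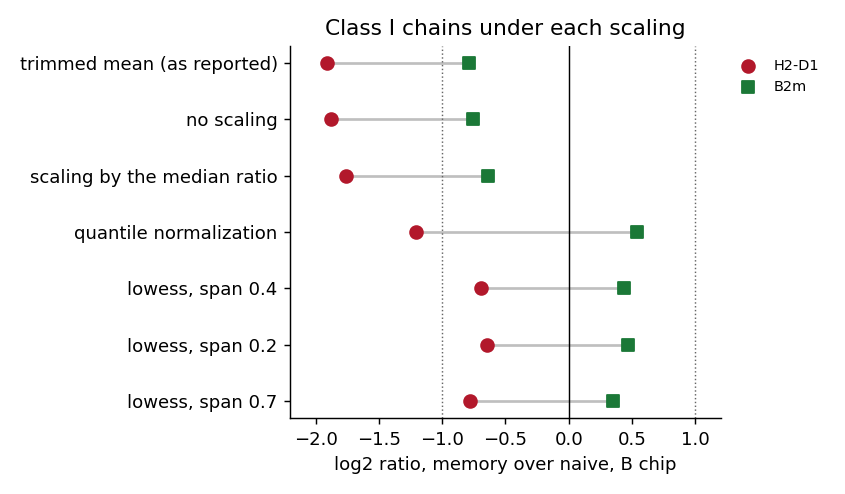
Log2 ratio of memory over naive on the B chip for H2-D1 (red circles) and B2m (green squares) under each scaling, 1 scaling per row, with 0 as a solid line and 2-fold as dotted lines. H2-D1 stays left of B2m in every row and below zero throughout (-1.91 to -0.65), while B2m lies below zero in the upper rows (-0.79 to -0.64) and above it with quantile and lowess scaling (0.35 to 0.54).

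Over the 1757 other named genes of the B chip, the nearest to each chain were found from the distance in scaled log2 intensity over the 2 arrays. Nearest to H2-D1 were Cd74, the invariant chain of MHC class II molecules (3068 in memory against 9507 in naive, distance 0.26), and the ribosomal protein genes Rplp0 (3183 in memory against 9229 in naive, distance 0.31) and Rpl27a (2884 in memory against 7386 in naive, distance 0.42). Nearest to B2m were Nfkbia, an inhibitor of NF-kappaB (3904 in memory against 6482 in naive, distance 0.04), the GTPase gene Rac2 (3779 in memory against 6788 in naive, distance 0.05) and the ribosomal protein gene Rps3 (3856 in memory against 6971 in naive, distance 0.09). With only 2 arrays such likeness means similar brightness and ratio.

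On the memory array of the A chip, 7 of the 9 class I probe sets lay above that array's noise limit of 184, and all 7 were among the brightest 5% of the array. Over the whole array 26.7% of 6529 probe sets lay above the limit. The median deposited intensity was 1354 over the class I probe sets and 64 over all probe sets. Probe sets differ in how strongly they bind, so these intensities do not rank the genes by transcript number.

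Both probe sets of H2-K1, the other classical heavy chain, were bright in memory cells, at 2351 and 1013. They stood at percentiles 99.8 and 96.2 of the array. H2-D1 had 3 probe sets, which read 2238, 1354 and -2. The first 2 stood at percentiles 99.7 and 97.8, while the last, of a class with fewer usable probes, was indistinguishable from noise and disagrees with the others. The 4 bright heavy-chain probe sets are all of the sequence-family class, so H2-K1 and H2-D1 may share signal and are not told apart with certainty.

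Of the loading machinery, Tapbp, whose product tapasin bridges heavy chain and transporter, read 1903 on the memory A array, at percentile 99.2. Tap1, the partner of Tap2 in the pump, read 956, at percentile 95.7. The 2 probe sets shared by H2-T23 and H2-T-ps read 1548 and 31, the second under the limit. They disagree with each other, and no level is given for H2-T23 from them.

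**Figure D4:**
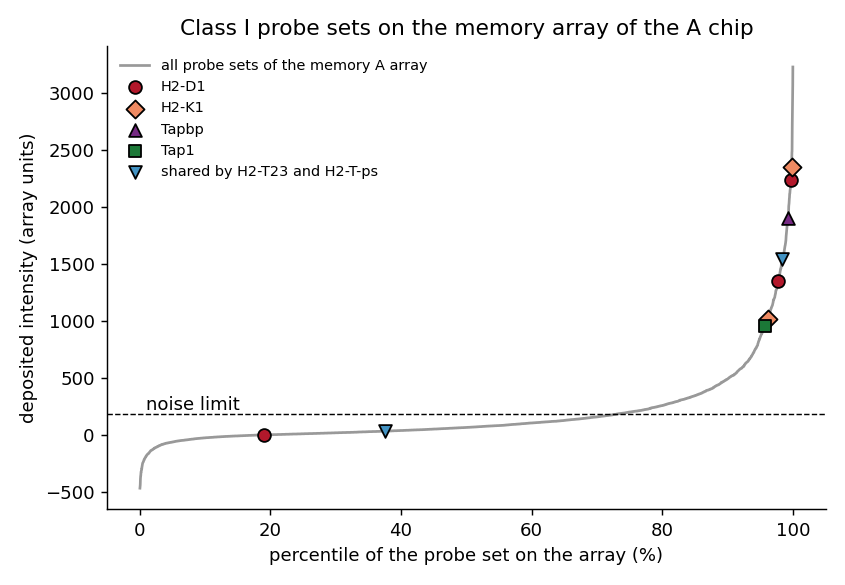
Deposited intensity (array units) against percentile of the probe set for the memory array of the A chip, with the 9 class I probe sets marked by gene and the noise limit of 184 as a dashed line. Of these, 7 lie between 956 and 2351 at the bright end, and 1 H2-D1 probe set (-2) and 1 of those shared by H2-T23 and H2-T-ps (31) lie under the limit.

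The promoters of H2-D1, H2-K1 and B2m are shown because the heavy and light chains gave different ratios and because the heavy chains are close copies of each other. Each window runs from 250 bases before to 50 bases after the transcript start, from RefSeq on GRCm38.p6, written 5′ to 3′ along the gene's own strand. Capitals mark matches on either strand to 4 motifs: a kappaB-like one (GGGA, any 4 bases, CC), the core of the interferon-stimulated response element (GAAA, any 2 bases, GAAA), the Y box (CCAAT) and a CRE-like one (TGACGC).
H2-D1 promoter, chr17:35262844-35263143, plus strand: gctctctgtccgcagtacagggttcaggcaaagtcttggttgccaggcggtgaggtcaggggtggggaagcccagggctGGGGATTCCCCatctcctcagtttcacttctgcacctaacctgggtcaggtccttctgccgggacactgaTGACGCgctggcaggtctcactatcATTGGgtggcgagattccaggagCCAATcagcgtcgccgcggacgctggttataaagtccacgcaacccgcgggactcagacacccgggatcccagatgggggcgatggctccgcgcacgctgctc
H2-K1 promoter, chr17:34000298-34000597, minus strand: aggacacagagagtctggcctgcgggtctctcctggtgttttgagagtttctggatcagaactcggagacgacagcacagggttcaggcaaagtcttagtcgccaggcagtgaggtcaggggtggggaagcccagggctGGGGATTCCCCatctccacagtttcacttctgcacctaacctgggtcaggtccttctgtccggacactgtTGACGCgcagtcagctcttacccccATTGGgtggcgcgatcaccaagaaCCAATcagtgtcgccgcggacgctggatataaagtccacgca
B2m promoter, chr2:122147437-122147736, plus strand: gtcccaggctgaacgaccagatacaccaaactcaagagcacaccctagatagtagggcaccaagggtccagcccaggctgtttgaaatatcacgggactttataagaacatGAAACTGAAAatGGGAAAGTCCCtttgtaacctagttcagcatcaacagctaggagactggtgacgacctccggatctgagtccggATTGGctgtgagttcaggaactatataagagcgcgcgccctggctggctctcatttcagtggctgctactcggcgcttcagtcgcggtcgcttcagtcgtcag

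The H2-D1 and H2-K1 windows matched at 211 of 239 aligned bases (88.3%). H2-K1 has 2 windows in RefSeq, and the first listed is shown. Both heavy-chain windows held the same kappaB-like match, GGGGATTCCCC, which reads on both strands, a TGACGC match and CCAAT on each strand. The B2m window held GAAACTGAAA, a match to the response element core, next to an overlapping pair of kappaB-like matches, and 1 CCAAT match. Of the 6 genes with a window, 3 held a kappaB-like match, 2 the response element core (B2m and H2-T23), 6 CCAAT and 2 TGACGC. Of all 32851 promoter windows of this length, 20.7% held the kappaB-like letters, 3.44% the response element core, 37.4% CCAAT and 7.40% TGACGC. The Tap1 window overlapped that of Psmb9, a proteasome gene read from the opposite strand, over 275 bases. A match is a description of letters and no evidence of binding. Only exact letters were searched, so a window without a match may still hold a variant of that element. Whether the promoters bear on the ratios was not tested.

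Of the other antigen presentation genes, 26 of 100 listed had a probe set of their own on the B chip and 11 of these were above the floor on at least 1 array. None was called higher and 1 was called lower, against 8.87% higher and 8.66% lower among all 462 measured genes, so the counts are near the background. The median log2 ratio was -0.29 over the 11 genes and -0.12 over all measured genes. The gene called lower was Tubb5, a beta-tubulin encoded near the class I region with no role in presentation. It read 472 on the memory array and 972 on the naive array (log2 ratio -1.04). With intensity-dependent scaling this ratio was -0.97 at a span of 0.4 and -0.95 at 0.2, not called. At a span of 0.7 it was still called lower. Another, dimmer Tubb5 probe set had a log2 ratio of -0.947 as reported, a bound that did not reach 2-fold.

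Both measured proteasome genes, which make immunoproteasome subunits that favour peptides fit for class I, had positive ratios under every scaling tried. The Psmb9 probe set is of the sequence-family class, as are those of Tubb5, Hspa5, Klra4 and Klra8, so these values may include related transcripts. Psmb9 read 963 on the memory array and 502 on the naive array, a log2 ratio of 0.94. With intensity-dependent scaling at a span of 0.4 its ratio was 1.01 and it was called higher, as were 9.74% of all measured genes (4.33% were lower), but at spans of 0.2 and 0.7 it was 0.99 and 0.98, not called. Psmb8 read 1467 on the memory array and 1012 on the naive array, a log2 ratio of 0.54 under both scalings. Across all scalings tried the ratio stayed between 0.94 and 1.09 for Psmb9 and between 0.51 and 0.69 for Psmb8. That of H2-D1, a far brighter probe set, ran from -1.91 to -0.65. The naive Psmb9 value of 502 was close to the floor of 423, and with the floor doubled the Psmb9 ratio fell to 0.19. At that setting Psmb8 stayed at 0.54 and H2-D1 at -1.91. Over all probe sets of the memory A array, counted singly, 26.7% lay above its limit. Of 6 proteasome and trimming genes, each taken by its brightest probe set, 4 did. They were Psmb9 at 379, Psmb8 at 1107, the related subunit Psmb10 at 437 and Psme1, an activator subunit of the proteasome, at 687. Psme3 (12) and Npepps (54) were under the limit.

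The 3 measured chaperones and channel subunits of class I assembly had negative ratios under every scaling tried, none past 2-fold. The median over all measured genes was also negative (-0.12), and 3 genes are too few to describe a group. Calr, calreticulin, part of the loading complex, read 1063 on the memory array and 2097 on the naive array, a log2 ratio of -0.98 and -0.96 with intensity-dependent scaling. Hspa5, the main chaperone of the endoplasmic reticulum, had a log2 ratio of -0.49, which shrank to -0.13 with intensity-dependent scaling and to -0.02 at a span of 0.7. Sec61a1, a channel subunit of that membrane, had a log2 ratio of -0.45, and -0.41 with intensity-dependent scaling. With the floor doubled the Sec61a1 ratio shrank to -0.13. Canx, calnexin, was under the floor on both B arrays and read 371 on the memory A array. Pdia3, the thiol oxidoreductase of the loading complex, read 1649 there.

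Among other heavy chains, H2-Q8 read 614 on the memory array and 561 on the naive array, a log2 ratio of 0.13, and the other 5 with a B-chip probe set were under the floor. Over all probe sets of the memory A array, counted singly, 26.7% lay above the limit. Of 9 such heavy-chain genes, each taken by its brightest probe set, 4 did. They were H2-Q10 at 999, the neonatal Fc receptor chain Fcgrt at 453, H2-M3, which presents formylated peptides, at 280, and the lipid-presenting Cd1d1 at 199. Whether the H2-Q10 value includes signal from other class I heavy chains could not be checked. Of 14 listed regulators, 4 had a probe set of their own on that array. All 4 were above its limit: Irf1 at 1270, Rela at 948, Irf2 at 447 and Irf8 at 390. The 4 regulators on the B chip, among them Creb1 and Nfyb, were under the floor on both arrays.

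Of the receptors that bind class I, Pirb, an inhibitory receptor of myeloid and B cells, read 1276 on the memory array and 662 on the naive array, a log2 ratio of 0.95. Cd8a, the coreceptor chain of CD8 T cells, read 498 on the memory array and 352 on the naive array, a bound of 1.18-fold higher. The NK receptor genes Klra4 (102 on the memory array, 548 on the naive array) and Klra8 (279 on the memory array, 516 on the naive array) were under the floor in memory, with bounds of at least 1.30-fold and 1.22-fold lower.

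**Figure D5:**
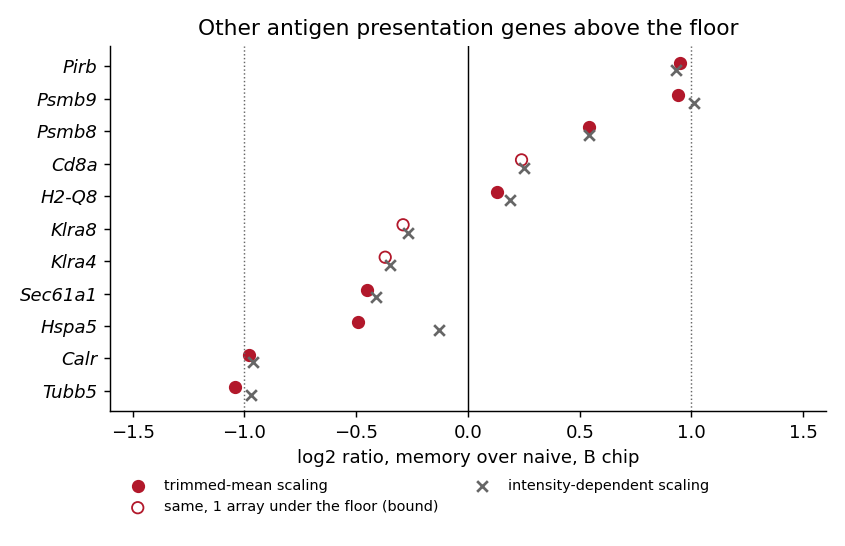
Log2 ratio of memory over naive on the B chip for the 11 other antigen presentation genes above the floor, with reported values in red (open where 1 array was under the floor, so that the value is a bound), intensity-dependent scaling as grey crosses, and 2-fold as dotted lines. Pirb and Psmb9 lie close to 2-fold on the higher side (0.95 and 0.94), and Tubb5 and Calr close to 2-fold on the lower side (-1.04 and -0.98).

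Class I genes are made by most cells, so the other cells in each preparation may add to these values, and in bulk samples fewer cells of a type and less RNA per cell cannot be told apart. On the B chip 6 of the 11 present of 21 listed macrophage and monocyte markers were at least 2-fold higher in memory and none lower, against the 8.87% higher and 8.66% lower of all measured genes. With intensity-dependent scaling 8 of them were higher. Their summed intensity was 28398 on the memory array and 16409 on the naive array, and all 11 were above the floor on at least 1 array. CD8 T cell markers summed to 4797 on the memory array and 8306 on the naive array, with 1 of 4 measured lower. The lower one was Thy1, a surface protein of mouse T cells, at 2848 in memory and 6184 in naive, and its log2 ratio of -1.12 became -0.14 with intensity-dependent scaling. Without Thy1 the sums were 1949 in memory and 2122 in naive, and Cd3d, a chain of the receptor complex, read 959 in memory and 1115 in naive. Class II and dendritic markers summed to 12846 on the memory array and 17010 on the naive array, but without Cd74 to 9778 on the memory array and 7503 on the naive array. Erythroid markers summed to 6995 on the memory array and 18198 on the naive array, but the listed genes differed in direction. The globin genes Hba-a1 (2007 in memory, 11296 in naive) and Hbb-b2 (2290 in memory, 6105 in naive) were lower. Alas2 (1943 in memory, 183 in naive, the latter under the floor) and Slc4a1 (754 in memory, 614 in naive) read higher. The remaining lists of measured markers gave 2 of 6 higher and 1 lower for dendritic and class II genes. Erythroid genes gave 1 of 4 higher and 2 lower, and granulocyte genes 0 of 3 either way. NK genes gave 1 of 3 lower and B cell genes 0 of 1. Memory T cell genes gave 2 of 2 higher, of 7 listed: Itgb1 and Ly6c2, the latter from a sequence-family probe set. Cd44 of that list was at noise on both B arrays (45.7 in memory and 4.03 in naive). On the memory A array 3 of 4 were above the limit, but Il2rb (148) was not. With intensity-dependent scaling no CD8 T, dendritic and class II or NK marker was called lower, and 1 erythroid marker was. Of the B cell markers, Cd79a was at noise on both B arrays (-48.6 in memory and 69.5 in naive), whereas Ighm, the mu heavy chain gene, read 1007 in memory and 1836 in naive, and on the memory A array Ighm read 297 and Ms4a1 301, above the limit. The part of these cells in the class I values was not tested.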

How the data were processed

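Per the labels, cRNA for hybridisation was prepared from Trizol-extracted total RNA. The authors deposited a whole-number intensity for every probe set, some of them negative and all apparently scaled. No source used here names the software, its settings or a genome build. The members and lists were chosen with earlier results of these data known.

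Gene symbols came from the platform annotation, and probe sets with several symbols were counted but not used as a gene's level. The 55 control probe sets per chip were left out of scaling. Intensities of the B arrays were multiplied to reach a common 2% trimmed mean (factors 0.993 and 1.01). For the floor (423) the sizes of negative values on the noisier array were taken at their 95th percentile, and smaller values were set to it before log2. The brightest probe set stood for a listed gene, which was measured if above the floor on at least 1 array. Lowess (span 0.4) was fitted to probe sets above the floor on both arrays. The memory A array was used as deposited, with its own noise limit of 184. Named genes were all class I probe sets, listed genes past 2-fold and the brightest few of each role; B-chip genes under the floor and other memory A values are given as examples, chosen after their values were seen. Promoters were searched as letters. The procedure was tested on simulated data with Python 3.11.15, numpy 2.4.6, pandas 2.3.3 and statsmodels 0.14.6. No trend with brightness was planted in the simulated data, so the test does not cover the trend seen among the brightest probe sets. The number of arrays limits the precision.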

Additional observations from a re-analysis of the deposited data

Results flagged for a closer look

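The naive A array entered no comparison. On it 1 of 9 class I probe sets lay above that array's noise limit of 296, an H2-D1 probe set at 529, against 18.4% of all its probe sets. The values on that array do not follow gene names, so nothing is read from it.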

How the results depend on the processing

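No paired analysis was possible because each group has 1 array per chip, and for the same reason no replicate could be left out. H2-D1 remained lower in memory under all 8 other settings of scaling and floor, but missed 2-fold with lowess scaling (-0.69, -0.65 and -0.78 at spans of 0.4, 0.2 and 0.7). B2m turned to 0.54 with quantile normalization and to 0.44, 0.47 and 0.35 with lowess at those spans. The cause was not tested. Relative to the reported scaling, the median ratio of 696 probe sets above the floor on both arrays shifted by 0.15 with median-ratio scaling, 0.11 with quantile normalization and 0.13 with lowess (span 0.4). Class I probe sets lower in memory numbered 0 with lowess (span 0.4) and 2 at a threshold of 1.5-fold. Other antigen presentation genes higher numbered 2 with median-ratio scaling, 1 with lowess at a span of 0.4 (0 at 0.2 and 0.7) and 2 at 1.5-fold. Those lower numbered 2 with the floor halved and at 1.5-fold, and 0 with median-ratio, quantile or lowess scaling (spans of 0.4 and 0.2, but 1 at 0.7), the floor doubled, a 3-fold threshold, the brighter array at least 4 times the floor, or probe sets without a class letter. Over all B probe sets, 112 were higher and 207 lower with the floor halved, 25 and 74 with it doubled or with the brighter array at least 4 times the floor, 109 and 185 at 1.5-fold, 19 and 39 at 3-fold, and 4 and 9 without class letters. Those lower numbered 73 with quantile and 54 with lowess scaling (span 0.4), and those higher 43 with both arrays above the floor. No class I probe set of the B chip lacks a class letter, so that setting gave no class I value there, and on the memory A array it left 0 above the noise limit, from 1 probe set. Halving or doubling that limit left 7 above it.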

Other observations

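H2-Q10, a class I gene known in mice for a secreted product of the liver, read 999 on the memory A array. Its probe set is outside the sequence-family class, but without probe sequences a share of signal from other class I heavy chains could not be checked. The other liver and epithelial class I-like gene on that array, Azgp1, read -5. Cd1d2 read -47 and Cd1d1 199, just above the noise limit of 184. Lilrb4a, an inhibitory receptor of myeloid cells and some T cells, read 987 there, and Spic, a transcription factor of red pulp macrophages, read 1800. Over all probe sets of that array, counted singly, 26.7% lay above its limit. Of the 9 listed macrophage and monocyte markers on it, each taken by its brightest probe set, 6 did. Mpeg1 (96), Fcgr1 (113) and Marco (103) were under the limit, although Mpeg1 read 3665 on the memory B array.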
